A study of Mus musculus with 8 samples.

Results

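The genes examined here were the NF-kB pathway and a set of immediate-early genes, in primary cultured mouse microglia kept with or without IgG. They were 38 genes chosen by symbol from the deposited table of 55385 genes, 24 of the NF-kB pathway and 14 immediate-early genes, with no threshold on a measured value. All 38 were found in the table, and 37 had enough counts to be tested among the 17537 genes tested; Fosb did not. Microglia are the resident immune cells of the brain. The cultures were prepared from the neocortex and hippocampus of wild-type newborn mice, pooled over several brains, shaken off the mixed glia and replated. The IgG group received 10 µg/ml IgG for 24 h from DIV15, and the control group was untreated by the sample labels and received PBS by the methods of the study; both groups otherwise had the same medium with heat-inactivated serum. Each group had 4 libraries, and libraries numbered alike, 1 of each group, carry 1 date in the sample labels, so the 8 libraries formed 4 pairs.

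NF-kB is a family of dimeric transcription factors that rest in the cytoplasm bound to IkB proteins. Kinases of the IKK family mark the IkB proteins for destruction, the dimers enter the nucleus, and among the genes they switch on are their own inhibitors, such as Nfkbia and Tnfaip3, so that the signal damps itself. Immediate-early genes, such as Fos, Jun and Egr1, are transcribed within minutes of a stimulus from factors already in the cell, and their RNAs are short-lived. In microglia both systems answer bacterial products, cytokines and cross-linked Fc receptors, and RNA taken at 24 h is taken long after that first wave.

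RefSeq promoter windows, which run from 250 bases before to 50 bases after a start site, were held for 29 of the 38 genes (37 windows). None was held for Nfkbiz, Nfkb1, Relb, Egr1, Egr3, Ier2, Myc, Ikbkb or Map3k8, so these genes were not searched. A match to the NF-kB consensus motif on either strand was found in 12 of these 37 windows, or 32.4%, and in 4.51% of all 32851 windows of this length. The 10 genes with a match were Nfkbia, Nfkbie, Bcl3, Nfkb2, Rel, Tnfaip3, Tnip1, Fos, Fosb and Ier3. The AP-1 motif (TGANTCA) was found in 4 windows, of Ikbke, Nfkb2, Nfkbie and Tnfaip3 (10.8% of windows, against 7.81% of all). The cAMP response element (TGACGTCA) was found in the windows of Birc2 and Dusp1 (5.41% against 1.79%). Among the genes with a window, the CArG box, which binds serum response factor, was found in Egr2 alone, in 4 of its 5 windows. That was 10.8% of member windows against 1.63% of all, but 1 of 29 genes, or 3.45%, against 1.81% of all genes. These 4 motifs were searched on both strands, windows of a gene can overlap, and a match describes letters and not binding. The windows of Nfkbia, Tnfaip3 and Nfkb2 are shown because these genes are textbook NF-kB targets, and that of Egr2 because its RNA was at lower values with IgG in every pair, although it did not pass (adjusted p 0.15 by edgeR). Capitals mark the NF-kB consensus in the first 3 and the CArG box in Egr2.
Nfkbia: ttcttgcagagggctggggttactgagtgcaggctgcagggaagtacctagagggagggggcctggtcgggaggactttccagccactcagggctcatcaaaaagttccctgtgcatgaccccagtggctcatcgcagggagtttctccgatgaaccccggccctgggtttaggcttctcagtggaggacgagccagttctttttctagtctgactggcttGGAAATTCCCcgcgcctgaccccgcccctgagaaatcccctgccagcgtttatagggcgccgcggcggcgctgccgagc
Tnfaip3: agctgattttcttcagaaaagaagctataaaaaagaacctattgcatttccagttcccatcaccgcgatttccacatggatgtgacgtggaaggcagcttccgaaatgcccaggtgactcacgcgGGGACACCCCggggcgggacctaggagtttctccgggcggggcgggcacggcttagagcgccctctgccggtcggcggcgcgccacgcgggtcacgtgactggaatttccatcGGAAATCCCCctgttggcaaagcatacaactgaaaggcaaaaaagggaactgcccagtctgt
Nfkb2: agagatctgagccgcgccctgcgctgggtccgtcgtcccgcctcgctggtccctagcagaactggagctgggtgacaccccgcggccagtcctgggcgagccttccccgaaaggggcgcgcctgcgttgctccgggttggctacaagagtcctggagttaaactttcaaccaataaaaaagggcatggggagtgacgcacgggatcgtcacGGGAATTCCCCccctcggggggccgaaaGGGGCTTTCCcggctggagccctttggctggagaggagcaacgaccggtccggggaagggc
Egr2: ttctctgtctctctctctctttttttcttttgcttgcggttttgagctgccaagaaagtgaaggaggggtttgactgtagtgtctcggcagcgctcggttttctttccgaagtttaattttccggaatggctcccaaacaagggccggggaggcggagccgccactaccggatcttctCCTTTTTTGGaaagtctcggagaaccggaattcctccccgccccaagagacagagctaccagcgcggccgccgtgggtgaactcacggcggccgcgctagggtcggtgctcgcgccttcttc
In GRCm38.p6 the Nfkbia window is chr12:55492598-55492897 on the minus strand, with its match starting 29 bases before the start site. The Tnfaip3 window is chr10:19015361-19015660 on the minus strand, with matches 125 and 12 bases before its start site. Of the 2 windows held for Tnfaip3, it is the 1 with a match. The Nfkb2 window, 1 of 3 that each hold a match, is chr19:46304487-46304786 on the plus strand. It has overlapping matches 39 and 38 bases and another 11 bases before the start site. The Egr2 window is chr10:67537316-67537615 on the plus strand, with the CArG box 72 bases before the start site.

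Library totals ran from 21287816 to 23703216 counts, so that 3 counts, the limit a count of 0 allows, were 0.124 to 0.147 CPM (counts scaled to library size, with TMM factors); this covers counting error only. The IgG libraries of pairs 1 and 3 stood apart with 4.85% and 5.59% of their counts on mitochondrial genes, against 1.97% to 2.41% in the other 6. Microglial markers were present (Csf1r averaged 1189 CPM in the control group), whereas P2ry12 and Tmem119, markers of resting microglia, averaged 6.98 and 5.09 CPM. The summed level of 9 oligodendrocyte lineage markers was 1198 to 1826 CPM in control and 1027 to 1716 CPM in IgG libraries, so other glial RNA was present in both groups. The 9 astrocyte markers summed to 174 to 199 CPM in control and 151 to 193 CPM in IgG libraries. The neuron, endothelial and fibroblast lists summed to 167.5 CPM or less in each library, with Cldn5 at 0 in all, whereas the 8 markers of border-associated macrophages summed to 941 to 1116 CPM in control and 1076 to 1476 CPM in IgG libraries. Among these, Stab1 averaged 759 CPM, Ms4a7 201 CPM and Mrc1 67.1 CPM in the control group, and Lyve1 and Cd163 averaged 0.0761 CPM or less in both groups. In the test described next, 0 astrocyte, 0 oligodendrocyte, 0 neuron, 0 endothelial and 0 fibroblast or mural cell markers passed adjustment, while 2 of 16 microglial markers, Aif1 and Fcrls, and 1 of the 6 border-associated macrophage markers tested, Ms4a7, were higher with IgG. Of the 4 endothelial markers tested, Cdh5, the adhesion protein VE-cadherin, met the criterion of the study (unadjusted p under 0.01 and a log2 fold change beyond 0.5), at 1.24, 0.767, 1.30 and 0.258 CPM in control and at 2.27, 1.39, 2.80 and 0.592 CPM in IgG libraries (0.98, SE 0.24, adjusted p 0.221 by edgeR). It was higher in each pair, although the groups overlapped. The 16 microglial markers summed to 9924 to 11494 CPM in control and 11209 to 12443 CPM in IgG libraries, and the part of this in the results below was not tested. Estimates of that test were positive in 0 of 9 oligodendrocyte, 1 of 9 astrocyte and 1 of 7 neuron markers tested. The median log2 fold changes of these 3 lists were -0.12, -0.15 and -0.17. They were positive in 13 of 16 microglial markers (median 0.17) and 5 of 6 border-associated macrophage markers. The same held for 5 of 5 fibroblast or mural cell and 3 of 4 endothelial markers. Whether any list shifted as a set was not tested. In bulk RNA, fewer cells of a type and less RNA per cell cannot be told apart.

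Most of the pathway was expressed, at levels that spanned 3 orders of magnitude per kilobase of exon. In control cultures the highest were the AP-1 subunits Jund (100.5 ± 3.6 CPM per kilobase, SD, n = 4) and Junb (83.7 ± 5.3), which form the dimers that bind AP-1 sites, followed by Nfkbia (40.1 ± 1.6), the main cytoplasmic inhibitor. Jun (28.5 ± 1.1), Rela (28.4 ± 0.79), an activating NF-kB subunit, and Egr2 (26.5 ± 1.3) came next, and these neighbours overlapped in their spread. Tnfaip2 (24.3 ± 6.0), Tbk1 (22.0 ± 1.3), Nfkb2 (21.9 ± 1.5) and Dusp6 (20.3 ± 3.6) completed the upper 10 and could not be ordered against each other beyond their spread. Among NF-kB subunits the order was Rela, Nfkb2, Relb (12.6 ± 0.42) and Nfkb1 (12.2 ± 0.60), the last pair overlapping, with Rel lowest (5.54 ± 0.12). Of the kinases, Tbk1 stood above Ikbke (13.5 ± 2.0), Chuk (9.07 ± 0.28), Map3k8 (5.19 ± 0.40) and Ikbkb (4.30 ± 0.082). The lowest were Dusp2 (1.22 ± 0.25), Egr3 (0.124 ± 0.044), Fosb (0.0712 ± 0.037) and Traf1 (0.0623 ± 0.022). Lengths are those of all annotated exons joined, so a gene with long rare exons, such as Ikbkb with 19078 bases, is placed low, and 8 of the upper 10 stayed there when CPM was not divided by length.

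**Figure D1:**
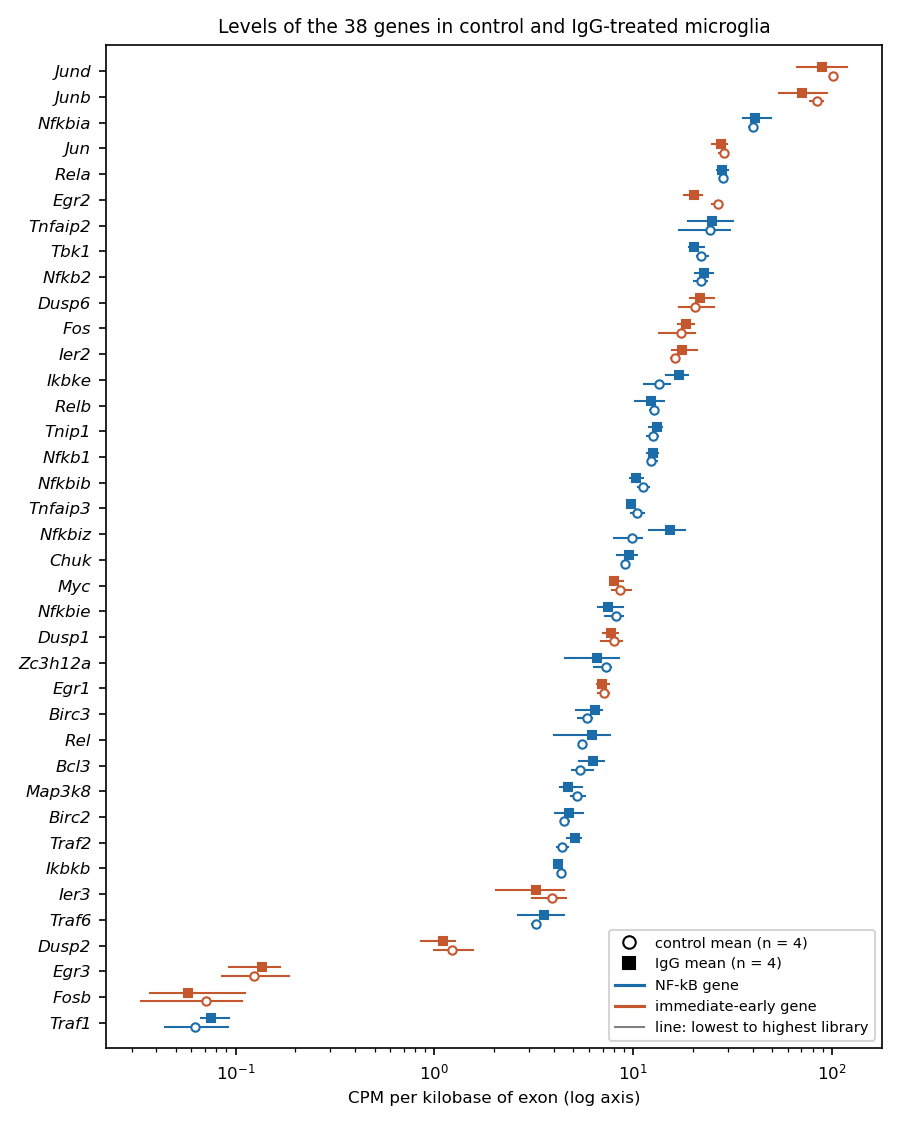
Mean level of each of the 38 genes in CPM per kilobase of exon (log axis), in control (open circles) and IgG-treated (filled squares) microglia, with a line from the lowest to the highest of 4 libraries. Jund and Junb are highest and Traf1, Fosb and Egr3 lowest, and for Nfkbiz and Egr2 the lines of both groups do not overlap.

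The comparison of IgG with control asked whether these genes differed after 24 h with IgG. In edgeR's quasi-likelihood test with the pair as a block, none of the 37 genes tested passed an adjusted p-value of 0.05. Over all genes tested 0.393% were called higher and 0% lower by that rule. With the same block DESeq2 and limma-voom each called 1 of the genes, Nfkbiz, where they called 1.34% and 0.496% of all genes higher and 0.114% and 0.0057% lower. The likelihood ratio test called Nfkbiz higher and Egr2 lower, where it called 1.6% of all genes higher and 0.262% lower. By the criterion of the study (a log2 fold change of over 0.5 in either direction at an unadjusted p under 0.01), 1 of the 37 was higher, Nfkbiz, and 0 were lower, against 1.48% of all genes higher and 0.342% lower. Only these cutoffs come from the study, whose test is not clearly described, and the p-values are those of the fits made here. At an unadjusted p-value under 0.05, Nfkbiz and Ikbke were higher and Egr2 was lower, or 5.41% and 2.70% of the genes, against 6.35% and 3.85% of all genes. These shares were near the background in both directions. Without the block, 0 of all genes passed adjustment (0%), and Nfkbiz again was the gene that met the criterion of the study, against a background of 0.582% higher. The median log2 fold change was 0.01 over the 37 genes, 0.05 over the 24 NF-kB genes and -0.05 over the 13 immediate-early genes tested, beside -0.01 over all genes tested.

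For most of these genes the libraries limited how large a difference could be. The 95% interval of the log2 fold change lay within 0.5 of 0 on either side for 26 of the 37 genes (70.3%), 19 of 24 in the NF-kB pathway and 7 of 13 among the immediate-early genes. The same held for 50.5% of all genes tested. The widest intervals belonged to Traf1 (-0.51 to 1.10) and Egr3 (-0.74 to 1.01), both under 1 CPM in every library. Every IgG library lay above every control library in 1 of the 37 genes, Nfkbiz, and below in 1, Egr2, where 2.6% and 1.57% of all genes separated in this way. Nfkbiz, Ikbke, Traf2 and Dusp6 were higher in all 4 pairs (10.8%, against 10.4% of all genes), and Tnfaip3 and Egr2 were lower in all 4 (5.41%, against 8.47%).

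**Figure D2:**
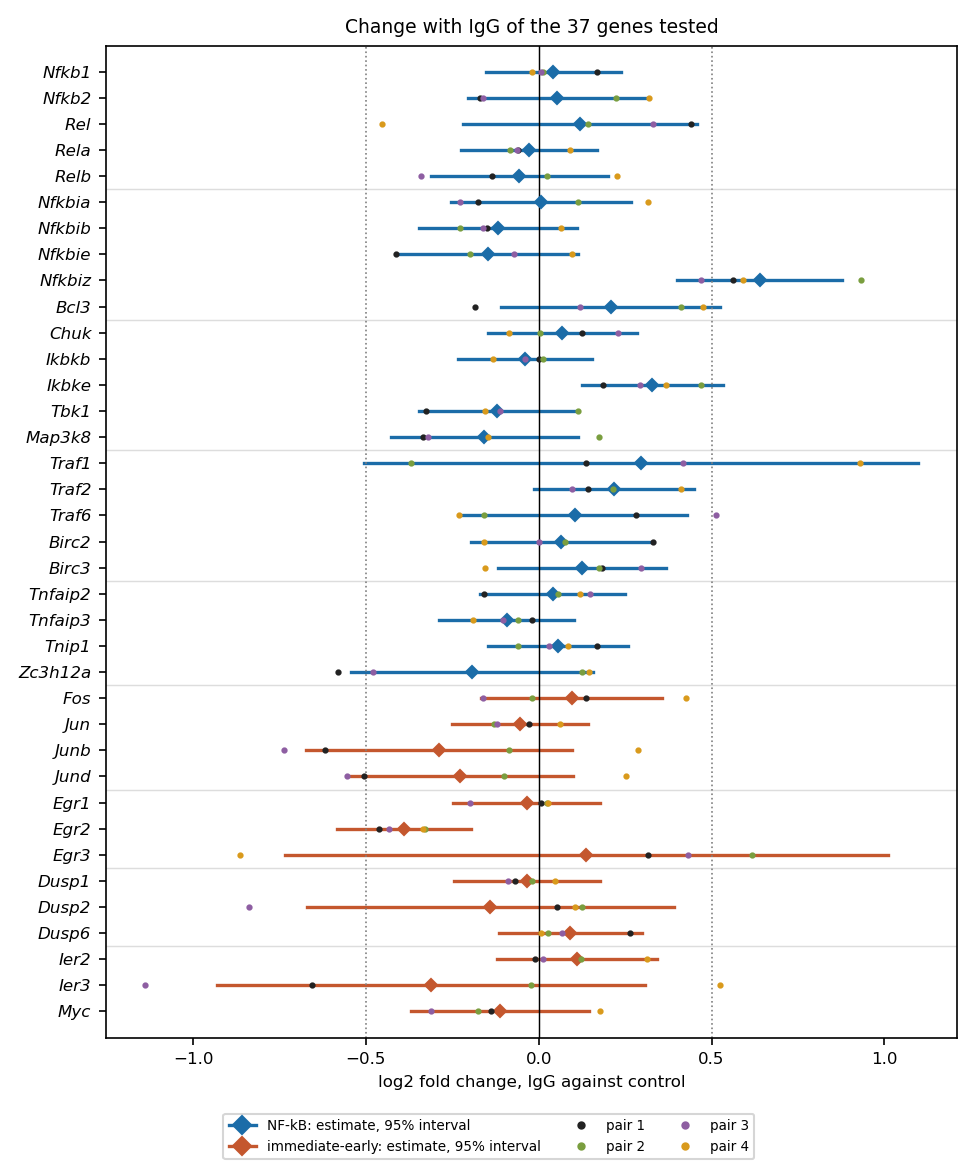
Log2 fold change with IgG (horizontal axis) of the 37 genes tested, ordered by role, with the 95% interval of the blocked fit (line), the estimate (diamond) and the change within each of the 4 pairs (dots). Dotted lines mark 0.5 on either side of 0. The interval of Nfkbiz (0.40 to 0.88), that of Ikbke (0.12 to 0.53) and that of Egr2 (-0.58 to -0.19) exclude 0.

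Nfkbiz encodes IkB-zeta, an atypical IkB protein that resides in the nucleus and acts with NF-kB p50 on a subset of late target genes. The gene (chr16:55811375-55838899, minus strand, GRCm38) was at 55.3, 47.6, 54.6 and 39.9 CPM in control libraries 1 to 4. It was at 81.7, 90.9, 75.6 and 60.2 CPM in IgG libraries 1 to 4. The lowest IgG library, of pair 4, still lay above the highest control library. The mean went from 49.4 ± 7.2 to 77.1 ± 12.9 CPM (SD, n = 4), with log2 changes of 0.56, 0.93, 0.47 and 0.59 within the pairs. The fitted log2 fold change was 0.64 (SE 0.10), a fold of 1.56, with an unadjusted p of 0.00025 and an adjusted p of 0.052 by edgeR with the block. Without the block the adjusted p was 0.574, and in DESeq2 with the block it was 0.00046. The call by adjustment depended on the test and on the processing.

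The other IkB proteins did not pass the test. Nfkbia was at 66.6, 61.4, 66.9 and 63.6 CPM in the control and at 59.0, 66.5, 57.2 and 79.1 CPM in the IgG libraries. The control values lay within the range of the IgG values, and the log2 fold change was 0.01 (SE 0.11, 95% interval -0.25 to 0.27). Nfkbib (-0.12) and Nfkbie (-0.15), 2 further cytoplasmic inhibitors, were lower in 3 of 4 pairs with intervals that included 0. Bcl3, a nuclear IkB protein that pairs with p50 and p52, went from 13.4 ± 1.5 to 15.6 ± 2.5 CPM (log2 fold change 0.21, SE 0.14, adjusted p 0.61 by edgeR), higher in 3 of 4 pairs.

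The 5 NF-kB subunits had log2 fold changes from -0.06 to 0.12, and all 5 intervals lay within 0.5 of 0. Rela was at 87.7, 90.0, 84.1 and 86.7 CPM in control and at 84.1, 84.9, 80.5 and 92.4 CPM in IgG libraries. Nfkb1, which gives p105 and p50, averaged 148 ± 7.2 and 152 ± 9.4 CPM. The groups overlapped in both genes. Nfkb2 and Relb, of the non-canonical arm, were lower in pairs 1 and 3 and higher in pairs 2 and 4. Rel went from 40.3 to 42.2 CPM in the control libraries to 57.3, 44.5, 52.9 and 29.8 CPM in IgG libraries 1 to 4, so its IgG libraries lay on both sides of all controls.

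Among the kinases, Ikbke was higher in all 4 pairs. Ikbke encodes IKK-epsilon, a kinase related to the IKKs that acts with TBK1 upstream of interferon regulatory factors. The gene (chr1:131254343-131279606, minus strand, GRCm38) was at 137, 110, 138 and 102 CPM in control and at 156, 153, 169 and 132 CPM in IgG libraries. The IgG library of pair 4 lay below the control libraries of pairs 1 and 3, so the groups overlapped, while within pairs the log2 changes were 0.19, 0.47, 0.29 and 0.37. The fitted log2 fold change was 0.33 (SE 0.09), with an unadjusted p of 0.0058 and an adjusted p of 0.288 by edgeR with the block. Its partner Tbk1 was at 86.0 ± 4.9 and 79.2 ± 6.2 CPM (log2 fold change -0.12, SE 0.10). Chuk and Ikbkb, the catalytic IKK subunits, had log2 fold changes of 0.07 (SE 0.09) and -0.04 (SE 0.08). Ikbkb was the steadiest, at 80.1 to 83.9 CPM in control and 76.5 to 82.9 CPM in IgG libraries. Map3k8, the kinase that links IKK to the ERK pathway, had a log2 fold change of -0.16 (SE 0.12).

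The TRAF and cIAP adaptors, which carry signals from receptors to the IKK complex, had positive estimates in 5 of 5 genes, from 0.06 to 0.30. Over all genes tested, 49.1% had positive estimates. By an unadjusted p under 0.05, 0 of the 5 passed, where 6.35% of all genes were higher and 3.85% lower. The median change of the 5 was 0.18, 0.08, 0.30 and -0.16 in pairs 1 to 4. In pairs 2 and 4 alone, the estimates of Traf6 and Birc2 were below 0. Traf2 was at 23.9, 22.1, 22.2 and 21.0 CPM in control and at 26.4, 25.7, 23.7 and 27.9 CPM in IgG libraries, higher in each pair, with a log2 fold change of 0.22 (SE 0.10, 95% interval -0.01 to 0.45). The groups overlapped at the IgG library of pair 3 alone. Traf6, Birc2 and Birc3 were higher in pair 1 and lower in pair 4.

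The brakes of the pathway did not pass the test either. Tnfaip3, the ubiquitin-editing enzyme A20, was at 70.6, 70.1, 78.5 and 81.4 CPM in control and at 69.6, 67.3, 73.1 and 71.4 CPM in IgG libraries. It was slightly lower in each pair while the groups overlapped (log2 fold change -0.09, SE 0.09). Its binding partner Tnip1 averaged 44.5 ± 2.7 and 46.3 ± 3.2 CPM. Tnfaip2 varied more between pairs than with IgG, at 137, 152, 84.8 and 110 CPM in control and 123, 158, 93.9 and 120 CPM in IgG libraries. Zc3h12a, the ribonuclease regnase-1 that degrades inflammatory RNAs, was at 14.1 and 13.1 CPM in the IgG libraries of pairs 1 and 3 and at 24.3 and 24.4 CPM in those of pairs 2 and 4, on either side of the controls (18.3 to 22.3 CPM).

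**Figure D3:**
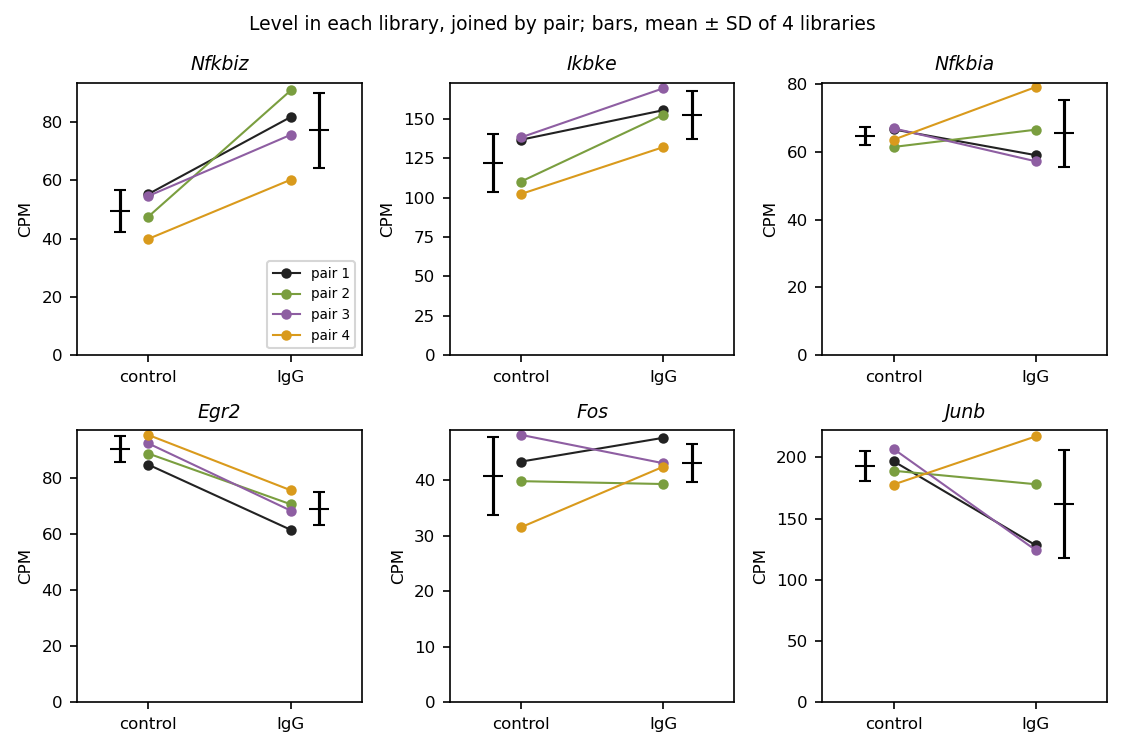
CPM (vertical axis, from 0) of 6 genes in the 8 libraries, with a line joining the control and IgG library of each pair and bars for mean ± SD of 4 libraries. Lines of Nfkbiz and Ikbke all slope up and those of Egr2 all slope down, whereas those of Nfkbia, Fos and Junb slope both ways.

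Of the immediate-early genes, Egr2 was lower with IgG in every pair. Egr2 encodes a zinc finger transcription factor of the EGR family, which is induced by growth factor signals and is also held at a steady level in macrophages. The gene (chr10:67535475-67542188, plus strand, GRCm38) was at 84.6, 88.5, 92.1 and 95.1 CPM in control libraries 1 to 4. It was at 61.4, 70.5, 68.2 and 75.5 CPM in IgG libraries 1 to 4. The highest IgG library lay below the lowest control library, and the log2 changes within pairs were alike, at -0.46, -0.33, -0.43 and -0.33. The mean went from 90.1 ± 4.6 to 68.9 ± 5.8 CPM (SD, n = 4). The fitted log2 fold change was -0.39 (SE 0.08), a ratio of 0.763, with an unadjusted p of 0.0017 and an adjusted p of 0.15 by edgeR with the block. Without the block the adjusted p was 0.574 by edgeR, and the lowest adjusted p over the alternatives was 0.026. It was under 0.05 in 2 separate alternatives, the likelihood ratio test with the block and the blocked edgeR fit with GC and length trends removed. This call too depended on the test and on the processing.

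The other EGR factors differed from Egr2 in their values. Egr1, the classical member of the family, was at 30.2, 29.9, 33.8 and 33.3 CPM in control and at 30.4, 30.3, 29.4 and 34.0 CPM in IgG libraries. These groups overlapped, and the 95% interval of its log2 fold change ran from -0.25 to 0.18. Egr3 had 0.377 to 0.818 CPM in control and 0.410 to 0.739 CPM in IgG libraries. No difference was detectable at this depth for Egr3. The difference between Egr2 and the other EGR factors was not tested.

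The AP-1 subunits Fos and Jun had estimates near 0. Fos was at 43.3, 39.8, 48.2 and 31.5 CPM in control and at 47.6, 39.3, 43.0 and 42.4 CPM in IgG libraries. Jun was at 94.1, 92.4, 86.0 and 90.6 CPM in control and at 92.3, 84.5, 79.0 and 94.5 CPM in IgG libraries. The groups overlapped in both genes, with intervals of -0.17 to 0.36 and -0.25 to 0.14. Fosb had 0.209 to 0.676 CPM in control and 0.231 to 0.696 CPM in IgG libraries and was too low to be tested.

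Junb and Jund showed IgG libraries on both sides of the controls. Junb was at 197, 189, 207 and 178 CPM in control libraries and at 128, 178, 124 and 217 CPM in IgG libraries 1 to 4. Jund was at 166, 176, 162 and 166 CPM in control and at 117, 165, 110 and 197 CPM in IgG libraries. In both genes the IgG libraries of pairs 1 and 3 were lowest of all 8 and that of pair 4 was highest. Their log2 fold changes were -0.29 (SE 0.17) and -0.23 (SE 0.14), with adjusted p-values of 0.574 and 0.596 by edgeR. Ier3, an early response gene that is a known NF-kB target, was also lowest in the IgG libraries of pairs 1 and 3, at 2.91 and 2.31 CPM, with 5.05 CPM in that of pair 4 and 3.49 to 5.19 CPM in the controls.

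The remaining immediate-early genes did not pass the test. Dusp1, the phosphatase that switches off p38 and JNK, averaged 26.3 ± 2.7 and 25.7 ± 1.8 CPM. Dusp6, the phosphatase specific to ERK, was at 53.1, 64.3, 57.7 and 79.3 CPM in control and at 63.9, 65.5, 60.5 and 79.7 CPM in IgG libraries. Pair 4 was highest in both groups, so Dusp6 differed more between pairs than with IgG. Dusp2 was at 1.98 to 3.14 and 1.72 to 2.54 CPM. Ier2 had a log2 fold change of 0.11 (SE 0.10) and Myc of -0.11 (SE 0.11), with overlapping groups.

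The changes within pairs went along with base composition and gene length. Across the 37 genes, which are not independent of each other, the change within a pair and the GC content of the longest transcript had a Spearman rho of -0.52 in pair 1, -0.19 in pair 2, -0.44 in pair 3 and 0.53 in pair 4. Over 17503 genes with a GC value these were -0.38, -0.031, -0.39 and 0.31. With exon length in place of GC content, rho over the 37 genes was 0.58, 0.20, 0.63 and -0.35 in pairs 1 to 4, and over the 17503 genes it was 0.21, -0.032, 0.21 and -0.35. The 10 genes of highest GC content (57.3% to 67.1%), among them Jund, Junb, Bcl3 and Ier2, had median log2 changes of -0.10, -0.02, -0.16 and 0.18 in pairs 1 to 4. The 10 of lowest GC content (41.3% to 49.0%), among them Rel, Chuk, Birc2 and Nfkb1, had medians of 0.18, 0.05, 0.04 and -0.16. Pairs 1 and 3 were those with the high mitochondrial share in the IgG library, and the part of composition, length or RNA quality in these changes was not tested. With trends on GC content and length removed, the log2 fold change of Nfkbiz was 0.62 and that of Egr2 was -0.39, close to the values without it, while Junb went to -0.11 and Jund to 0.04. In pairs 2 and 4 alone, chosen after seeing the data, Nfkbiz was at 0.77 and Egr2 at -0.33, whereas Junb (0.10), Jund (0.08), Ier3 (0.25) and Zc3h12a (0.14) had estimates above 0.

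**Figure D4:**
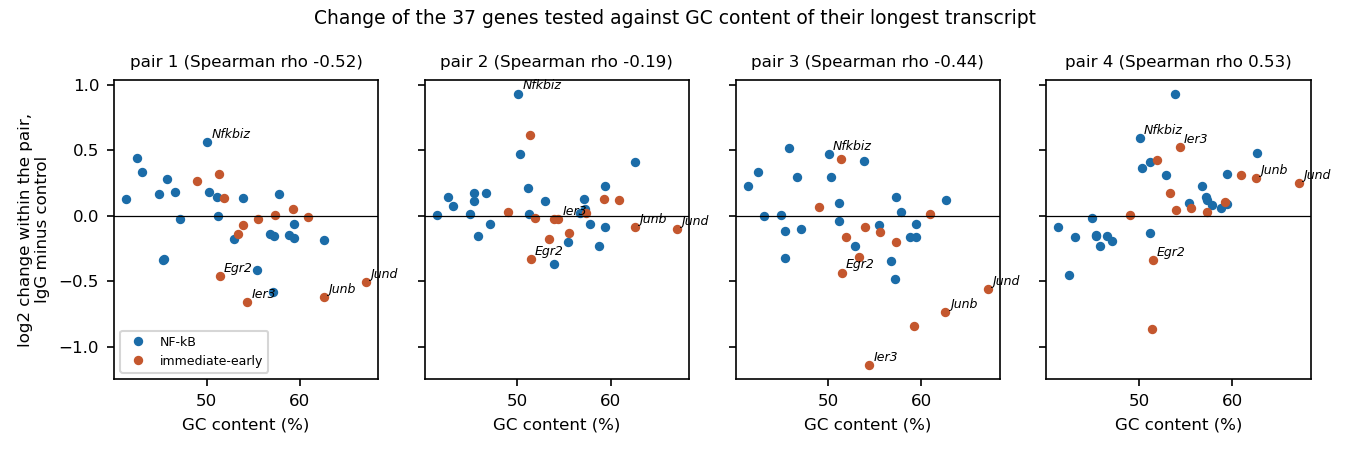
Log2 change within each pair (vertical axis) of the 37 genes tested against the GC content of the longest transcript (%), 1 panel per pair. Points slope down in pairs 1 and 3 and up in pair 4; Nfkbiz lies above 0 and Egr2 below 0 in all 4 panels.

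Related genes were counted beside the members, on lists of which 0 to 2 genes each passed adjustment. Of 31 NF-kB target genes tested, 24 had positive estimates (49.1% of all genes tested did), the median log2 fold change was 0.17, and 2 passed adjustment, both higher, beside the 0.393% of all genes called higher. At an unadjusted p under 0.05, 9 were higher and 1 was lower, where 6.35% and 3.85% of all genes were. The genes past adjustment were Ccl5, a chemokine for T cells, and Il1b, a cytokine of inflammation. Ccl5 was at 179, 118, 157 and 68.1 CPM in control and at 372, 312, 254 and 209 CPM in IgG libraries (log2 fold change 1.19, SE 0.15, adjusted p 0.0222 by edgeR with the block). Il1b was at 33.3, 32.3, 37.8 and 16.5 CPM in control and at 57.1, 45.0, 54.7 and 30.0 CPM in IgG libraries (0.66, SE 0.10, adjusted p 0.0466). The Ccl5 groups did not overlap, whereas those of Il1b did through pair 4, which was low in both groups. Without the block, 0 of the target genes passed adjustment, and with it 0 passed without pair 1, 0 without pair 2 and 1 without pair 3. Lcn2, the iron-binding lipocalin whose transcription needs IkB-zeta, was looked at after its values were seen: it was at 1.16, 1.53, 1.84 and 1.38 CPM in control and at 3.56, 2.83, 3.93 and 3.87 CPM in IgG libraries (log2 fold change 1.26, SE 0.21, adjusted p 0.052). Of other genes of this list, also picked after their values were seen, Tnf (17.6 and 18.9 CPM on average) and Icam1 (103 and 97.3 CPM) did not pass the test and had overlapping groups. Il6 was too low to be tested, at or under 0.196 CPM in every library, near the level of 3 counts.

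Of 38 other NF-kB signalling genes tested, 0 passed adjustment (2 in DESeq2 and in the likelihood ratio test), 3 were higher and 2 lower at an unadjusted p under 0.05, near the shares of 6.35% and 3.85% over all genes, and the median log2 fold change was 0.06. Tnip3, an A20-binding protein, met the criterion of the study at 19.3, 17.7, 17.5 and 16.2 CPM in control and 37.6, 23.8, 29.1 and 19.6 CPM in IgG libraries (log2 fold change 0.60, SE 0.13, adjusted p 0.156 by edgeR). Its groups did not overlap. Of 40 other immediate-early genes tested, 0 passed adjustment (1 in the likelihood ratio test), 2 were higher and 3 lower at an unadjusted p under 0.05, beside the same shares over all genes, and the median was -0.08. Ier5l met the criterion, lower in all 4 pairs, at 22.4, 25.5, 25.6 and 25.9 CPM in control and at 13.3, 20.8, 13.6 and 24.3 CPM in IgG libraries (log2 fold change -0.51, SE 0.15, adjusted p 0.344). Its IgG libraries of pairs 1 and 3 were the lowest. Of 32 genes of the MAPK cascade and serum response factor, 0 passed adjustment and 1, Mapk14, was higher at an unadjusted p under 0.05. Of 10 heat shock genes tested, 0 passed adjustment and Hspa8 and Hsp90aa1 were higher at an unadjusted p under 0.05, with their highest levels in the IgG libraries of pairs 1 and 3.

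**Figure D5:**
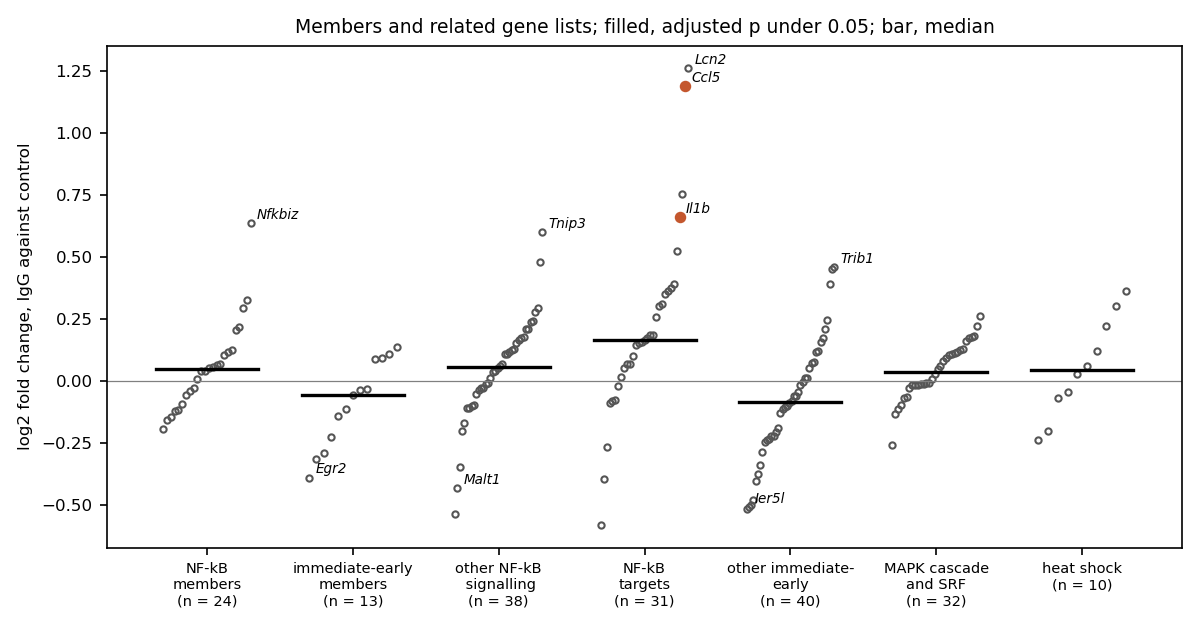
Log2 fold change with IgG (vertical axis) of each gene tested in the NF-kB and immediate-early sets and in 5 related lists, with the median as a bar; filled points passed an adjusted p of 0.05. The filled points are Ccl5 and Il1b among the NF-kB targets, and the target list has the highest median of the lists shown, 0.17. Cell type marker lists are not shown.

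Exons of 9 of the 38 genes overlap those of a gene on the other strand, such as Prdx2 for Junb, an antisense gene for Jund, Junos for Jun, Psd for Nfkb2, Ergic1 for Dusp1 and 2 antisense genes for Ikbke. The use of strand in counting is not given in the sources used here, so reads of these genes and their partners may not be told apart. Nfkbiz and Egr2 have no such overlap.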

How the data were processed

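Poly(A) RNA of primary microglia was sequenced by the study in 4 control and 4 IgG-treated cultures. The deposited table holds raw counts for Ensembl genes, with no normalization, which the authors made by removing adapter-containing and low-quality reads and aligning the rest to mm10 (GRCm38) with HISAT2. The submitters' processing notes also name HISAT2 2.2.1, SAMtools 1.12, Picard 2.26.3, featureCounts and edgeR 3.36.0; annotation, strand and the treatment of multiply aligned reads are not given in the sources used here. Symbols, lengths, coordinates and GC content came from GENCODE M21 (55144 of 55385 identifiers matched), and promoter windows from RefSeq (GRCm38.p6).

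Counts were scaled by TMM, filtered with filterByExpr and fitted in edgeR 4.0.16 (R 4.3.3; quasi-likelihood test) with group and replicate number (block) as terms and Benjamini-Hochberg adjustment over all 17537 genes. Intervals are 95% intervals of the t distribution. Changes within a pair are differences of log2 CPM with a prior count of 2. The samples were paired by number, since by the labels both libraries of a number share a date, whose kind is not given; deviations from group means correlated at 0.38, 0.27, 0.20 and 0.29 within numbers and -0.32 to 0.17 between them, over 15905 genes. No 2 libraries of a group agreed within sampling noise (chi-square per degree of freedom 5.0 or more). The design text counts replicates as cultures. With the block, p-values measure how the change with IgG varied between the 4 pairs. Without it, they measure the spread between the cultures of a group. The fits were tested on simulated data.

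The genes, the related lists and the tests were chosen with earlier results of these data known. Every one of the 38 genes is named; from other lists, the rule named genes past adjustment or, if none, those that met the criterion of the study, and any other named gene was chosen after its values were seen. Alternatives were the fit without the block, a likelihood ratio test, DESeq2 1.42.0, limma-voom (limma 3.58.1), other scalings and filters, removal of trends on GC content and length (lowess, span 0.3) and omission of each pair; pairs 2 and 4 alone were added after seeing the data.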

Additional observations from a re-analysis of the deposited data

Results flagged for a closer look

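Map3k8, the kinase that links IKK to the ERK pathway, was at 24.9 CPM in the IgG library of pair 2 and at 19.3 to 20.3 CPM in the other IgG libraries. The gap to the nearest of these was 0.835 of the range of the group, above the 95% critical value of Dixon's test for 4 samples. It was 1 of 74 groups of 4 compared over the genes tested, and chance sets apart about 1 in 20 such groups. In the control libraries Map3k8 ran from 21.8 to 25.6 CPM.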

How the results depend on the processing

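Nfkbiz met the criterion of the study under every alternative run, with log2 fold changes of 0.54 to 0.77. The count of genes past adjustment among the 37, 0 in the blocked fit, was 1 (Nfkbiz) in DESeq2, in limma-voom, with any gene that had 1 count tested, in pairs 2 and 4 alone, and 0 to 1 when a pair was left out (1 without pair 4). It was 1 higher (Nfkbiz) and 1 lower (Egr2) in the likelihood ratio test and, separately, in the blocked fit with GC and length trends removed. The adjusted p of Nfkbiz ranged from 3.9e-05 to 0.574, that of Egr2 from 0.026 to 0.842 and that of Ikbke from 0.125 to 0.996 over the alternatives; Egr2 stayed between -0.49 and -0.33 and Ikbke between 0.23 and 0.42 on the log2 scale. Without the replicate block the count past adjustment was 0, the median log2 fold change of the genes was 0.02, and no estimate changed sign, so in edgeR's quasi-likelihood test, the only test run without the block, the pairing changed no call of these genes by adjusted p or by the criterion of the study. Ccl5 and Il1b were not called without the block, and Traf2 had an unadjusted p of 0.034 without it and 0.062 with it. The cause of the differences between tests was not tested. Scaling by total counts alone shifted the median of all genes by -0.10 and the medians of the 37 genes and of the NF-kB genes to -0.093 and -0.052. Over all alternatives, 23 of the 37 genes changed sign in at least 1, with log2 fold changes from -0.31 to 0.14 in the blocked fit. Scaling by total counts moves all genes alike, and Tnip1 and Dusp6 changed sign under it alone. Under total counts, signs changed for Nfkb1 (-0.058), Nfkb2 (-0.047), Nfkbia (-0.093), Chuk (-0.032), Birc2 (-0.036), Tnfaip2 (-0.059), Tnip1 (-0.044), Fos (-0.0054) and Dusp6 (-0.0088). With GC and length trends removed, signs changed for Nfkb1 (-0.017), Rela (0.073), Chuk (-0.020), Birc2 (-0.0056), Jund (0.039) and Egr1 (0.017). Nfkbia went to -0.030 with upper quartile scaling and to -0.021 with at least 10 counts in every library. Leaving out a pair gave ranges across 0 for Nfkb2 (-0.052 to 0.13), Relb (-0.17 to 0.040), Nfkbia (-0.11 to 0.087), Traf6 (-0.033 to 0.20), Birc2 (-0.026 to 0.12), Tnfaip2 (-0.0019 to 0.11), Fos (-0.031 to 0.18), Egr1 (-0.072 to 0.020), Egr3 (-0.056 to 0.51) and Dusp2 (-0.24 to 0.10). In pairs 2 and 4 alone, Nfkb1 (-0.0026), Rel (-0.15), Chuk (-0.040), Traf6 (-0.19), Birc2 (-0.040) and Egr3 (-0.14) went below 0, and Rela (0.0043), Relb (0.13), Map3k8 (0.016), Zc3h12a (0.14), Junb (0.10), Jund (0.077), Egr1 (0.025), Dusp1 (0.013), Dusp2 (0.12), Ier3 (0.25) and Myc (0.0026) above 0. Over the alternatives, 0 to 4 of the NF-kB target genes, 0 to 2 of the other NF-kB signalling genes and 0 to 1 of the other immediate-early genes passed adjustment. Depth limits Fosb, Egr3 and Traf1, which lay under 1 CPM.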

Other observations

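A few other genes related to the pathway did not pass adjustment but are given with their values; they were chosen after their values were seen. Malt1, a protease of the pathway that joins receptors with ITAM signals to the IKK complex, was at 85.6, 126, 85.7 and 129 CPM in control and at 70.1, 94.0, 68.3 and 79.5 CPM in IgG libraries. It was lower in each pair (log2 fold change -0.43, SE 0.10, adjusted p 0.176 by edgeR with the block), and pairs 2 and 4 were highest in both groups. Trib1, a pseudokinase that directs the degradation of C/EBP factors, was at 26.1, 22.1, 27.6 and 21.8 CPM in control and at 37.9, 32.3, 38.6 and 26.5 CPM in IgG libraries (log2 fold change 0.46, SE 0.10, adjusted p 0.127). It was higher in each pair, although the groups overlapped at pair 4. Saa3, an acute-phase protein gene, was at 192, 136, 197 and 116 CPM in control and at 213, 301, 210 and 365 CPM in IgG libraries (log2 fold change 0.75, SE 0.25, adjusted p 0.397). Its groups did not overlap, and its increase was largest in pairs 2 and 4. Nfkbid, another nuclear IkB protein, was at 22.3 to 25.3 CPM in control and at 9.66, 23.1, 13.5 and 25.3 CPM in IgG libraries, so only the IgG libraries of pairs 1 and 3, those with the high mitochondrial share, lay below the controls; the part of that share was not tested.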
